A study of Homo sapiens with 20 samples.

Results

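The genes described here are 31 genes of cholesterol and fatty acid synthesis, measured by RNA-seq in NGP cells with and without nutlin-3. They were chosen by gene name and are 7 enzymes of the mevalonate and isoprenoid steps, 11 enzymes from squalene to cholesterol, 5 genes of the SREBP system, 2 sterol transport genes and 6 enzymes of fatty acid synthesis and desaturation. All 31 were among the 27697 genes (mRNAs and lncRNAs with at least 1 count in each condition) that were tested. NGP is an established human neuroblastoma line with MYCN amplification. Its cells were given either 8 µM of nutlin-3, as a racemic mixture, or the solvent ethanol as vehicle, with 10 samples per group. The labels name no other agent or allele in either group. Nutlin-3 is a small-molecule ligand of the ubiquitin ligase MDM2. The treatment time is not given in the sources used here, and all samples come from 1 cell line. The replicates are called biological in the study's methods. Nothing says that they were grown or treated on separate days, so the p-values measure the spread between these samples, which may be technical.

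Cholesterol is built from acetyl-CoA through mevalonate, the isoprenoid diphosphates, squalene and lanosterol. Transcription of nearly all enzymes of that route is driven by SREBP2, the product of SREBF2, and that of fatty acid enzymes mainly by SREBP1, the product of SREBF1. Both precursors are held in the endoplasmic reticulum by SCAP and the INSIG proteins when sterol is plentiful and travel to the Golgi for cleavage when it is low. Excess oxysterol acts the other way through the LXR receptors, which raise exporters such as ABCA1 and also SREBF1. Proliferating tumour cells use both pathways to make membrane.

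Library totals ranged from 14455477 to 19532971 estimated read pairs. Values below are CPM, counts scaled to library size with TMM, unless TPM, the level per length, is named. MDM2, the gene of the protein that nutlin-3 binds and a check of the treatment, was between 199 and 290 CPM (median 249.99) in vehicle and between 4797 and 6005 CPM (median 5659) in nutlin samples. All 9 adrenergic neuroblastoma markers reached a mean of 1 TPM in vehicle, and their sum was 3970 to 4767 TPM in vehicle and 4383 to 5356 TPM in nutlin. The 8 mesenchymal and fibroblast markers summed to 12.1 to 19.2 TPM in vehicle and 18.04 to 23.2 TPM in nutlin, the 4 endothelial markers to 0.147 to 1.20 TPM and 0.243 to 1.17 TPM, and the 5 leukocyte markers to 2.09 to 4.65 TPM and 7.04 to 10.3 TPM. Among the leukocyte genes CD3E had 0 counts in every sample, PTPRC was at most 0.296 TPM in any sample, and the difference lay in CD68 and LYZ. The part of any of these lists in the results below was not tested. In bulk samples fewer cells of a type and less RNA per cell cannot be told apart.

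After nutlin-3 most enzymes of cholesterol synthesis were higher, whereas the genes of fatty acid synthesis were split. A gene was called when edgeR's quasi-likelihood test gave an adjusted p under 5% FDR over all genes. By this rule 19 of the 31 genes rose, 8 fell and 4 did not pass. Calls were frequent in these data, with 58.8% of all genes tested and 81.9% of the 12797 mRNAs with a mean of at least 1 CPM called in either direction, so the 27 calls (87.1%) stood near the background. The direction stood further from it. Of the members 61.3% rose, against 32.3% of all genes and 31.4% of those mRNAs, and 25.8% fell, against 26.5% and 50.6%. With a change of at least 1.5-fold added, 12 members rose (38.7%, against 23.2% of all genes and 15.7% of those mRNAs) and 3 fell (9.68%, against 12.8% and 22.6%). In 9 members every nutlin sample lay above every vehicle sample and in 4 every nutlin sample lay below, which is 29.0% and 12.9% of the list. Over all genes 12.2% were separated upward and 16.6% downward, and over the mRNAs 17.7% and 34.6%. The median log2 fold change (LFC, nutlin over vehicle) was 0.31 over the members, 0.19 over all genes tested and -0.15 over the mRNAs. These counts describe a list chosen by function with earlier results known, and were not tested as a set.

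**Figure D1:**
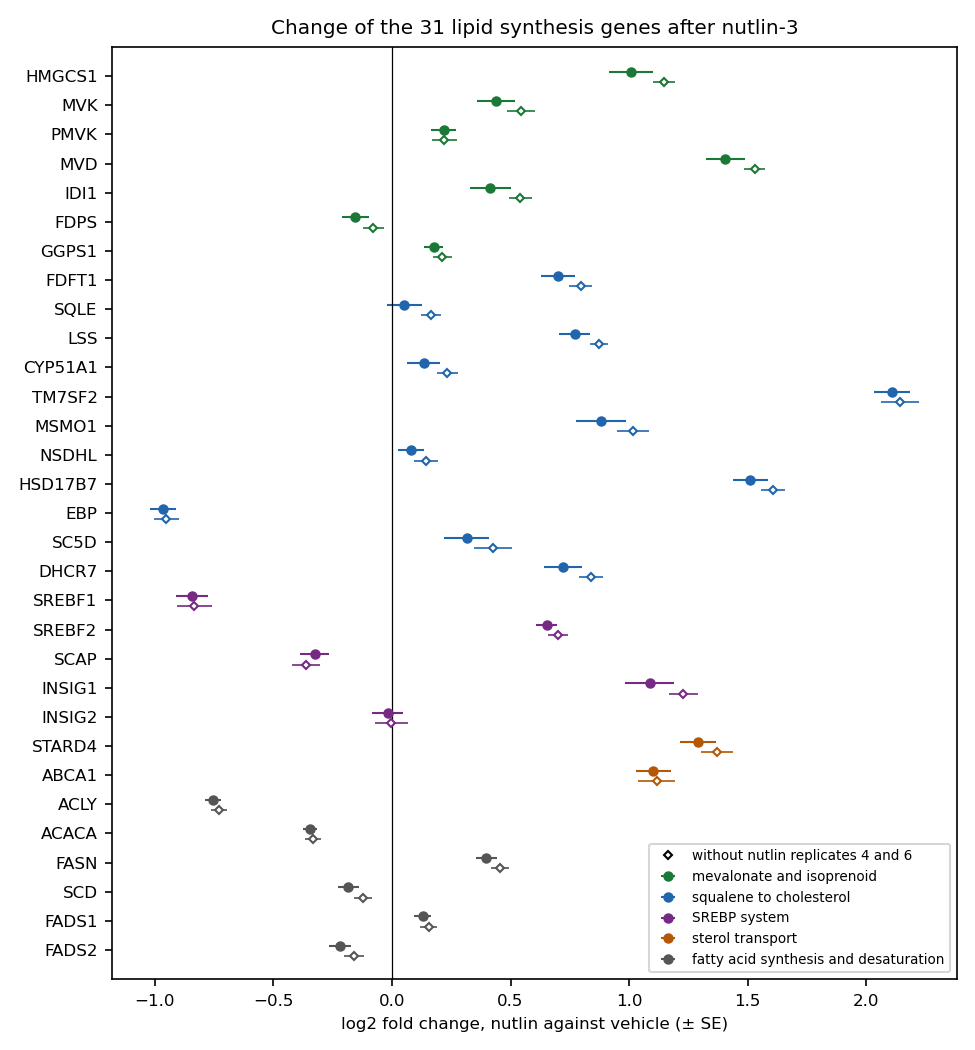
The LFC of each gene (horizontal axis, nutlin against vehicle) with its standard error from edgeR, coloured by role, for all 20 samples (filled circles) and without nutlin replicates 4 and 6 (open diamonds). Cholesterol enzymes and sterol transporters lie mostly to the right of 0, with TM7SF2 at 2.11 and EBP at -0.96 as the ends of the range.

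In the mevalonate and isoprenoid steps 6 of 7 enzymes rose and FDPS fell. HMGCS1, which condenses acetyl-CoA with acetoacetyl-CoA ahead of mevalonate (chr5:43287470-43313512, minus strand, GRCh38), lay between 125 and 162 CPM (median 135) in vehicle and between 152 and 328 CPM (median 294) in nutlin. In 9 of 10 nutlin samples it exceeded the highest vehicle sample, and the LFC was 1.01 ± 0.093 (SE). The edgeR adjusted p was 9.31e-11. MVD, which decarboxylates mevalonate diphosphate to isopentenyl diphosphate, went from 35.1 to 44.1 CPM (median 37.8) in vehicle to 64.7 to 119 CPM (median 111) in nutlin. The groups did not overlap, and the LFC of MVD was 1.41 ± 0.084 with an edgeR adjusted p of 3.82e-15. These 2 enzymes passed 1.5-fold. The kinases between them moved less. MVK, mevalonate kinase, had an LFC of 0.44 ± 0.080, with 8 of 10 nutlin samples above the vehicle range. PMVK, the following kinase, had an LFC of 0.22 ± 0.053 with 4 of 10 above it.

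IDI1, which interconverts the isoprenoid building blocks, spanned 47.4 to 64.2 CPM (median 53.7) in vehicle and 43.6 to 85.8 CPM (median 77.2) in nutlin. Its nutlin samples reached both below and above the vehicle range, with an LFC of 0.41 ± 0.086 and an edgeR adjusted p of 0.000123. GGPS1, which makes geranylgeranyl diphosphate for protein prenylation rather than sterol, had an LFC of 0.18 ± 0.039. FDPS, the farnesyl diphosphate synthase ahead of it, had an LFC of -0.15 ± 0.058 with an edgeR adjusted p of 0.0224. That call was the least firm of the 27. Without nutlin replicates 4 and 6 the LFC of FDPS was -0.08 and the edgeR adjusted p 0.139.

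From squalene to cholesterol 7 of 11 enzymes rose, EBP fell, and SQLE, CYP51A1 and NSDHL did not pass. The largest change of any member was in TM7SF2, a C14 sterol reductase (chr11:65111845-65116384, plus strand). It held 3.58 to 5.20 CPM (median 4.16) in vehicle and 15.1 to 21.7 CPM (median 18.6) in nutlin. The lowest nutlin sample was thus far above the highest vehicle sample, at an LFC of 2.11 ± 0.076 (4.31-fold) and an edgeR adjusted p of 1.68e-20. HSD17B7, which reduces the 3-keto group during C4 demethylation, was next, from 14.5 to 20.5 CPM (median 16.1) to 31.9 to 50.8 CPM (median 49.2). The groups were separate, with an LFC of 1.51 ± 0.073. The value of HSD17B7 is uncertain in 1 respect, since the copy HSD17B7P2, annotated as a lncRNA, had a mean count equal to 16.1% of that of HSD17B7 and its own LFC of 3.12 ± 0.120, and reads can be split between such copies.

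Further enzymes of the lower pathway rose by between 1.24 and 1.84-fold. FDFT1, squalene synthase, the first enzyme committed to sterol, had an LFC of 0.70 ± 0.071. LSS, which closes squalene epoxide into lanosterol, spanned 123 to 152 CPM (median 131) in vehicle and 167 to 255 CPM (median 239) in nutlin, an LFC of 0.77 ± 0.065 without overlap. MSMO1, the C4 methyl oxidase, had an LFC of 0.88 ± 0.106. Of these, LSS alone was separated between the groups, and FDFT1 and MSMO1 had 9 of 10 nutlin samples above the vehicle range. DHCR7, the last reductase of one branch, reached an LFC of 0.72 ± 0.080, and SC5D, the C5 desaturase before it, 0.31 ± 0.095.

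EBP, the sterol isomerase between these groups of steps (chrX:48521799-48528716, plus strand), moved against its neighbours. It lay between 62.5 and 78.5 CPM (median 68.9) in vehicle and between 30.99 and 40.9 CPM (median 35.3) in nutlin, with an LFC of -0.96 ± 0.053 and an edgeR adjusted p of 4.93e-16. No nutlin sample reached the lowest vehicle sample. The enzymes that did not pass had values close to 0 on the same scale. SQLE, the epoxidase and a rate-limiting step, had an LFC of 0.05 ± 0.073 (edgeR adjusted p 0.565). CYP51A1, the lanosterol demethylase, had 0.13 ± 0.068 (edgeR adjusted p 0.0936), and NSDHL, the C4 decarboxylase, 0.08 ± 0.055 (edgeR adjusted p 0.225). All 3 passed, as higher, once nutlin replicates 4 and 6 were left out, at LFCs of 0.16, 0.23 and 0.14 and edgeR adjusted p of 0.00148, 4.01e-05 and 0.0173. Both libraries were picked as the lowest nutlin samples in most members, these 3 included, so higher LFCs without them follow from that choice.

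Among the regulators SREBF2 and INSIG1 rose, SREBF1 and SCAP fell, and INSIG2 did not pass. SREBF2 (chr22:41833105-41907306, plus strand) spanned 226 to 283 CPM (median 259) in vehicle and 366 to 437 CPM (median 409) in nutlin. SREBF1, its paralog, went the other way, from 49.5 to 77.8 CPM (median 61.3) in vehicle to 33.6 to 38.6 CPM (median 34.4) in nutlin. The groups of both genes were separate, in opposite directions, with LFCs of 0.65 ± 0.043 and -0.84 ± 0.067. The edgeR adjusted p were 3.65e-14 and 3.14e-12. INSIG1, the sterol-sensitive anchor and itself an SREBP target, spanned 25.8 to 37.1 CPM (median 30.7) in vehicle and 37.2 to 81.7 CPM (median 71.1) in nutlin. Its lowest nutlin sample only just cleared the highest vehicle sample, at an LFC of 1.09 ± 0.103. SCAP, the escort of both precursors, had an LFC of -0.32 ± 0.061, with 5 of 10 nutlin samples below the vehicle range. INSIG2, a second anchor that does not depend on SREBP, had an LFC of -0.02 ± 0.065 (edgeR adjusted p 0.850).

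The 2 transport genes rose together. STARD4, a soluble carrier of sterol between membranes, lay between 32.8 and 51.6 CPM (median 43.0) in vehicle and between 80.2 and 121 CPM (median 109) in nutlin. ABCA1, the LXR-driven exporter of cholesterol to apolipoprotein, lay between 20.99 and 43.3 CPM (median 33.3) in vehicle and between 64.9 and 73.8 CPM (median 70.0) in nutlin. Neither pair of ranges met. The LFCs were 1.29 ± 0.075 for STARD4 and 1.102 ± 0.072 for ABCA1, with edgeR adjusted p of 2.21e-15 and 3.86e-14. The spread of ABCA1 was wide in vehicle (CV 18.3%) and narrow in nutlin (CV 3.68%).

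For fatty acids, 2 of 6 enzymes rose, 4 fell, and only ACLY passed 1.5-fold. ACLY, the citrate lyase that supplies acetyl-CoA to both pathways, was at 801 to 948 CPM (median 878) in vehicle and 489 to 541 CPM (median 521) in nutlin, with an LFC of -0.75 ± 0.032 and an edgeR adjusted p of 9.83e-19. ACACA, the carboxylase that makes malonyl-CoA, was at 178 to 204 CPM (median 187) and 143 to 153 CPM (median 149), an LFC of -0.35 ± 0.031. FASN, the synthase that uses malonyl-CoA, was at 789 to 944 CPM (median 873) and 970.3 to 1261 CPM (median 1198), an LFC of 0.40 ± 0.045. Consecutive enzymes thus differed in direction, each without overlap between the groups. The desaturases changed little. SCD, the stearoyl-CoA desaturase, had an LFC of -0.18 ± 0.045, FADS2, the delta-6 desaturase, -0.22 ± 0.046, and FADS1, the delta-5 desaturase, 0.13 ± 0.035. FADS1 (chr11:61799627-61829318, minus strand) and FADS2 (chr11:61792980-61867354, plus strand) share 490 exonic bases on opposite strands, and whether the quantification used strand is not given in the sources used here. The same limit holds for further members that overlap a gene on the opposite strand. That gene had the higher mean count for SREBF1 (556 bases with RAI1), MVK (225 with MMAB), GGPS1 (138 with ARID4B) and CYP51A1 (108 with AKAP9). It had the lower one for others, such as FDPS (693 with RUSC1-AS1).

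The nutlin samples did not behave alike on this list, and 2 of them stood apart from the rest. In 21 of the 31 genes (67.7%) nutlin replicates 4 and 6 were both below all the other 8 nutlin samples, against 5.46% of all genes and 8.46% of the mRNAs with at least 1 CPM. No other of the 44 pairs of nutlin samples was lowest in more than 2 members. Replicate 4 was the lowest nutlin sample for 20 members, against 13.1% of all genes. The 2 libraries also stood apart over the whole transcriptome, although less often. Among genes of both biotypes with a mean of at least 1 CPM they were both lowest in 7.81% and both highest in 8.82%, where the next pairs reached 4.05% and 4.48%.

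By role, the pattern held for 6 of 7 mevalonate and isoprenoid enzymes, 9 of 11 enzymes from squalene to cholesterol, SREBF2 and INSIG1 of the SREBP system, STARD4, and FASN, SCD and FADS2. HMGCS1 shows its size, at 152 CPM in replicate 4 and 200.15 CPM in replicate 6 against 277 to 328 CPM in the other 8. INSIG1 was at 37.2 and 47.0 CPM against 66.8 to 81.7 CPM, and MSMO1 at 33.0 and 51.6 CPM against 60.7 to 81.0 CPM. In both of these genes replicate 4 lay in or near the vehicle range and replicate 6 between it and the other nutlin samples. Across the 21 genes replicate 4 was below the median of the other 8 by 0.13 to 1.13 on the log2 scale (median difference -0.67) and replicate 6 by 0.04 to 0.63 (median difference -0.34). In 14 of the 21 genes replicate 4, and in 10 replicate 6, fell under the highest vehicle sample. Both counts include genes in which other nutlin samples did so too. In FDPS, SCD and FADS2, 0 of 10 nutlin samples exceeded the highest vehicle sample. In NSDHL 2 did, in SQLE 4 and in CYP51A1 5.

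The members outside the pattern were PMVK, TM7SF2, EBP, SREBF1, SCAP, INSIG2, ABCA1, ACLY, ACACA and FADS1. TM7SF2 had the largest LFC of the list, yet held 16.6 and 18.3 CPM in replicates 4 and 6, inside the 15.1 to 21.7 CPM of the others. ABCA1 was at 70.9 and 67.9 CPM, inside 64.9 to 73.8 CPM, and SREBF1 at 37.8 and 34.1 CPM, inside 33.6 to 38.6 CPM. In the same 2 libraries some members thus lay within the range of the other nutlin samples and others below it. Those below it did not all match vehicle. Replicate 4 was under the vehicle range for SQLE (96.1 CPM, vehicle 128 to 158 CPM). For MVD it was over that range (64.7 CPM, vehicle 35.1 to 44.1 CPM). SCAP was highest in replicate 4, at 107 CPM, and was at 98.1 CPM in replicate 6, both above the median of the other 8 (87.6 CPM). MDM2 was at 4797 CPM in replicate 4 and 5224 CPM in replicate 6, against 5189 to 6005 CPM in the other 8. Replicate 4 had the fewest counts of the nutlin libraries, 15078052, and replicate 6 the most, 17442896. The adrenergic markers summed to 5356 and 4492 TPM, the mesenchymal and fibroblast markers to 19.1 and 18.05 TPM, the endothelial markers to 0.531 and 0.243 TPM, and the leukocyte markers to 7.76 and 7.99 TPM in replicates 4 and 6. The labels set these 2 samples apart from the other nutlin samples by number only, and the part of handling, depth or cell makeup in their values was not tested.

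**Figure D2:**
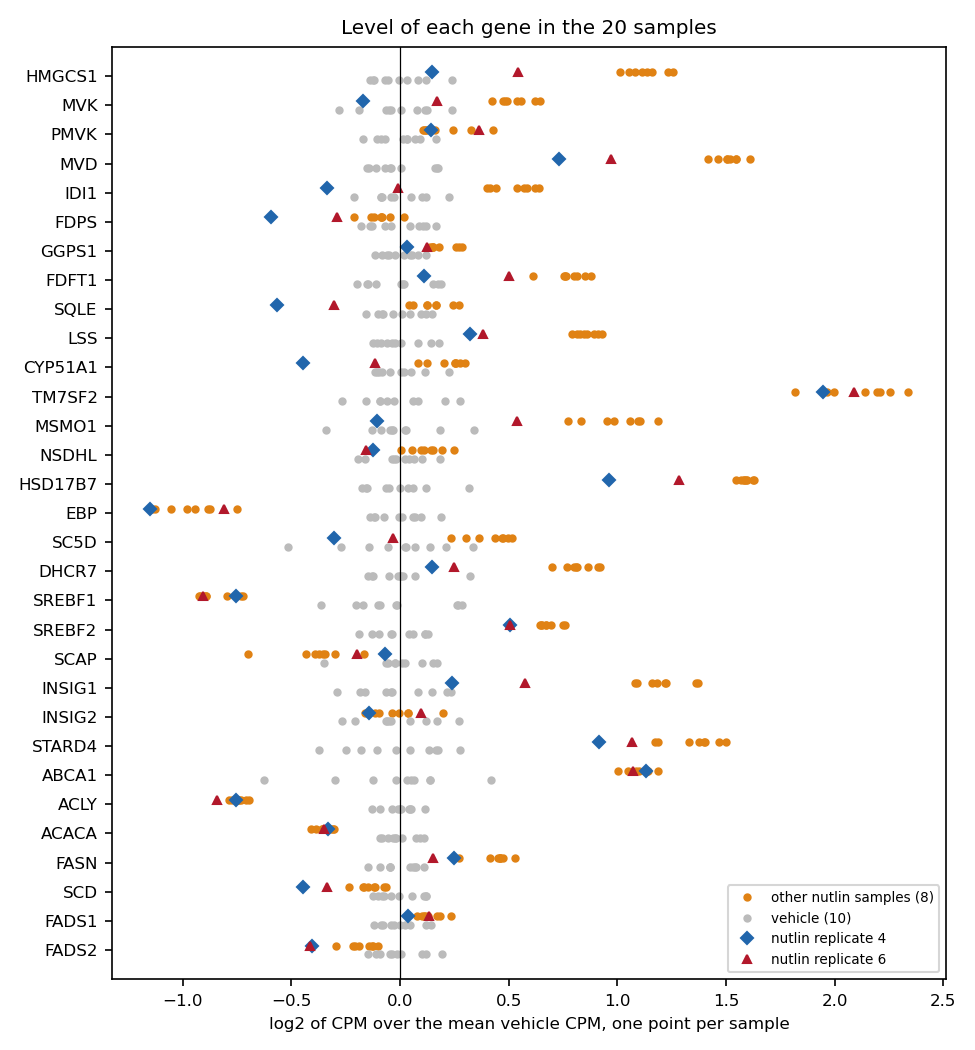
Each point is 1 sample, placed by the log2 of its CPM over the mean CPM of the 10 vehicle samples (horizontal axis), for each of the 31 genes. Nutlin replicates 4 (diamonds) and 6 (triangles) are the lowest nutlin samples in 21 genes, such as HMGCS1, MVD and INSIG1, and lie among the other nutlin samples for ABCA1, TM7SF2 and ACACA.

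Without these 2 libraries 22 members rose and 7 fell. The 2 were singled out as the lowest nutlin samples in 21 of these same 31 genes. Higher LFCs for those genes, and smaller standard errors such as those of HMGCS1 and MVD, follow from that choice and are no separate result. The LFC grew in size for 23 of the 31 genes, for example from 1.01 to 1.15 for HMGCS1, from 1.09 to 1.23 for INSIG1 and from 0.88 to 1.02 for MSMO1. For SCD it shrank from -0.18 to -0.12, with an edgeR adjusted p of 0.00813, and FDPS lost its call. The standard error fell from 0.093 to 0.046 for HMGCS1 and from 0.084 to 0.046 for MVD, whereas that of TM7SF2 went from 0.076 to 0.079.

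Summed over the 18 enzymes from HMGCS1 to DHCR7, the level per length was 976 to 1083 TPM (median 1047) in vehicle and 945 to 1483 TPM (median 1397) in nutlin. The overlap came from replicates 4 and 6, at 945 and 1037 TPM, inside or under the vehicle range. The other 8 nutlin samples were at 1351 to 1483 TPM, all above it.

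**Figure D3:**
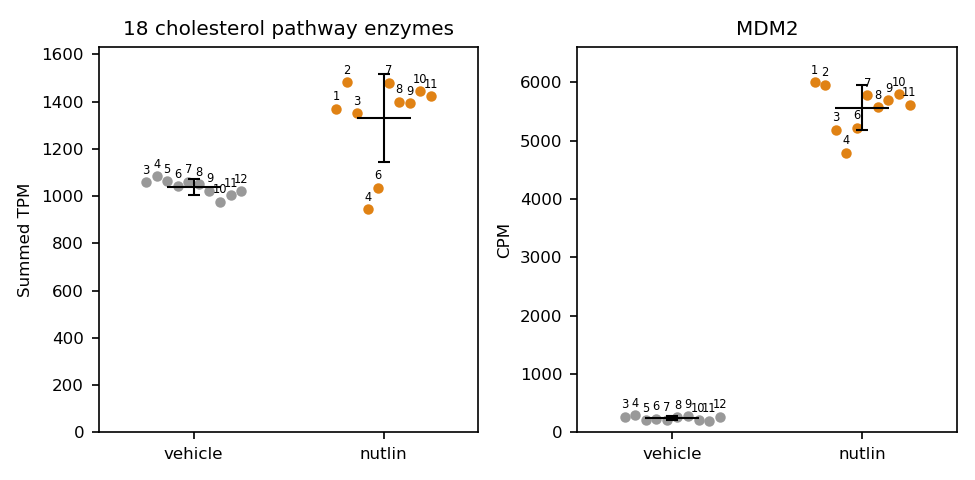
Summed TPM of the 18 cholesterol pathway enzymes (left) and CPM of MDM2 (right) in each sample, with the replicate number beside each point and the mean ± SD of the 10 samples per group as a bar. Nutlin replicates 4 and 6 fall to 945 and 1037 summed TPM while their MDM2 remains at 4797 and 5224 CPM.

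Compared per length, FDPS was the most abundant member in both groups, at 357 ± 10.1 TPM (SD, n = 10) in vehicle and 327 ± 39.8 TPM in nutlin. In vehicle ACLY (241 ± 15.4 TPM), FADS2 (188 ± 11.2 TPM), FASN (159 ± 12.4 TPM) and SCD (156 ± 13.0 TPM) followed, and FASN and SCD did not differ beyond their spread. In nutlin FDFT1 (237 ± 35.5 TPM) and FASN (194 ± 23.9 TPM) moved ahead of FADS2 (171 ± 18.5 TPM), ACLY (146 ± 10.3 TPM) and SCD (136 ± 12.7 TPM), with neighbours in this order within about their spread. EBP went from rank 7 to rank 16 of the 31, from 95.7 ± 3.22 to 47.4 ± 4.92 TPM. MVD went from rank 13 to rank 7, from 48.0 ± 4.85 to 112 ± 23.0 TPM. Between the paralogs, SREBF2 was at 59.8 ± 5.25 TPM and SREBF1 at 39.3 ± 5.80 TPM in vehicle. After nutlin they were at 97.5 ± 9.08 TPM and 22.1 ± 3.77 TPM, so that SREBF2 exceeded SREBF1 in both groups and by more in nutlin. ABCA1 was the least abundant, at 3.40 ± 0.798 and 7.44 ± 0.700 TPM.

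**Figure D4:**
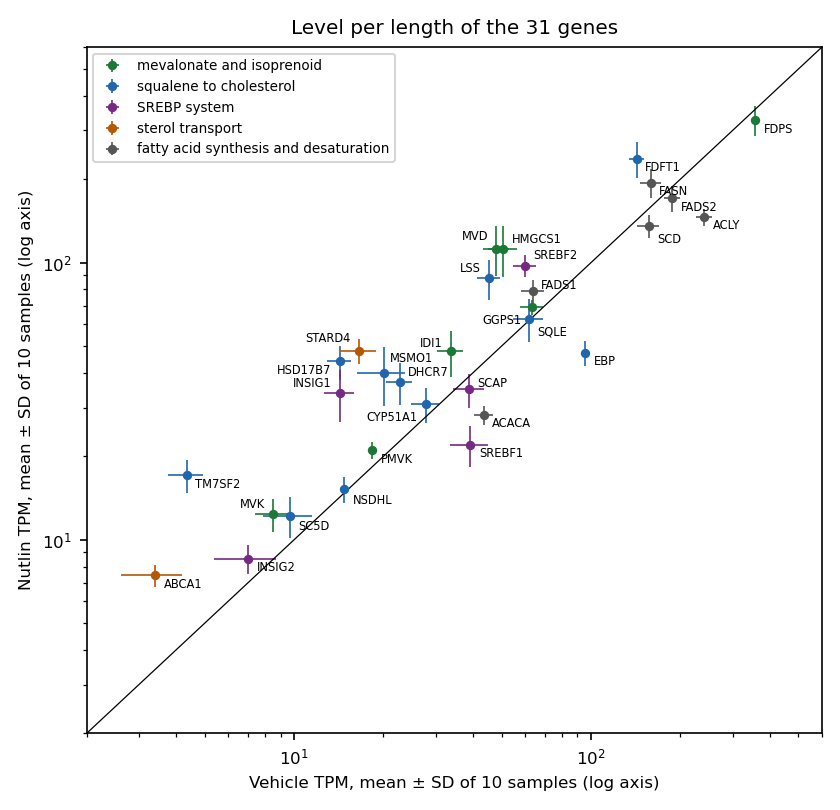
Mean TPM in nutlin (vertical log axis) against mean TPM in vehicle (horizontal log axis) for the 31 genes, with bars for the SD of 10 samples and colours for the role. Points above the diagonal are higher in nutlin, with TM7SF2 (4.36 to 17.1 TPM) and HSD17B7 (14.2 to 43.99 TPM) far above it and EBP and SREBF1 below it.

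The change in TPM was not always that in CPM. A level per length depends on the transcripts to which the reads of a gene are assigned, and TPM here carries no TMM scaling; the part of each in the gaps was not tested. ACACA had a TPM ratio of 0.649 but a fold of 0.787 in CPM, STARD4 2.90 against 2.45, and INSIG2 1.22 against 0.989. Transcript usage was tested with edgeR's diffSpliceDGE, which asks whether the transcripts of a gene changed unequally. Of the 28 members with at least 2 transcripts kept, 11 passed (IDI1, FDPS, LSS, MSMO1, HSD17B7, EBP, ACLY, ACACA, FASN, FADS1 and FADS2), against 20.2% of the 10026 genes tested. STARD4 and INSIG2 were not called, with edgeR adjusted p-values of 0.455 and 0.436. PMVK, SCD and ABCA1 could not be tested. Every fatty acid gene that could be tested was thus called.

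FADS1 had the smallest edgeR adjusted p of the list, 4.08e-10. Its main transcript FADS1-201 fell from 82.7% ± 3.46 (SD, n = 10) of the gene's TPM in vehicle to 68.4% ± 5.03 in nutlin. FADS1-204, also protein coding, went from 0.679% ± 1.06 to 5.30% ± 1.67, and its ranges of 0 to 3.40% and 2.91 to 7.69% met. In FADS2 (edgeR adjusted p 4.32e-08) FADS2-210 went from 1.85% ± 0.653 to 5.31% ± 1.53 and FADS2-201 from 48.2% ± 1.80 to 40.3% ± 2.08, both without overlap. In ACACA (edgeR adjusted p 1.69e-06) ACACA-231 took 29.2% ± 3.83 in vehicle and 44.2% ± 4.23 in nutlin. Over the same samples ACACA-232 went from 17.5% ± 3.73 to 6.86% ± 2.48 and ACACA-245 from 18.1% ± 2.98 to 9.41% ± 2.82. In IDI1 (edgeR adjusted p 0.000116) the minor coding transcript IDI1-203 rose from 3.60% ± 0.917 to 12.4% ± 1.34, again without overlap. HSD17B7-201 fell from 65.1% ± 7.43 to 41.1% ± 4.25, in a gene whose edgeR adjusted p was 0.0455. Shares of minor transcripts rest on how kallisto divided ambiguous reads, and the error of that division is not in the files used here. Limma's diffSplice called 19 of the 28 members, against 47.9% of all genes.

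**Figure D5:**
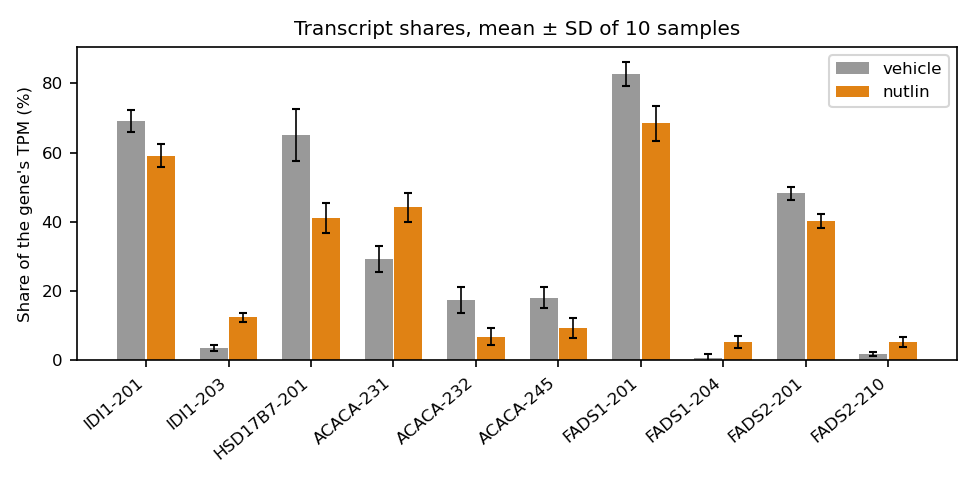
Share of the gene's TPM taken by 10 transcripts of 5 genes (bars, mean; whiskers, SD of 10 samples) in vehicle and nutlin. IDI1-203, ACACA-231, FADS1-204 and FADS2-210 take a larger share in nutlin, and IDI1-201, HSD17B7-201, ACACA-232, ACACA-245, FADS1-201 and FADS2-201 a smaller one.

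Promoters were read for 28 of the 31 genes, in 40 windows of 300 bases (250 before and 50 after the RefSeq start, GRCh38.p14). The sequences shown next were picked after the values were seen. They are those of the SREBP system genes that rose, SREBF2 and INSIG1, and of HMGCS1 and MVD, 2 enzymes that followed the pattern of replicates 4 and 6. The last is that of ABCA1, which did not follow it. ABCA1 holds no CCAAT box, whereas 4 of the 10 members outside that pattern do. Each sequence runs 5′ to 3′ on the gene's strand and holds only the bases outside the annotated gene. Capitals mark the SREBP site TCACNCCAC, the CCAAT box and the E-box CACGTG on either strand.
SREBF2 (chr22:41832855-41833104, plus strand): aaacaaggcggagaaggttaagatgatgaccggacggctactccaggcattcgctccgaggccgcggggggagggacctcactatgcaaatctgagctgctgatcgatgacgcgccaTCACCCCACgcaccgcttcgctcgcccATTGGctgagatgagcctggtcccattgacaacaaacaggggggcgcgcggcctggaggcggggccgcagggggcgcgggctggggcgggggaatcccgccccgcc
INSIG1 (chr7:155297628-155297775, plus strand): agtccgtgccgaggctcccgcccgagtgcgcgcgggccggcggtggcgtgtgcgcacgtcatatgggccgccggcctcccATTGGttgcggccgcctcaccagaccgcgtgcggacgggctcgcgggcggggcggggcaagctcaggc
HMGCS1 (chr5:43313513-43313662, minus strand): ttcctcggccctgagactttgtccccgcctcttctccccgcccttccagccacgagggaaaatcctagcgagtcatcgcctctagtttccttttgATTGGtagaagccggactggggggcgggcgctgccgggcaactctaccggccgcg
MVD (chr16:88663162-88663341, minus strand): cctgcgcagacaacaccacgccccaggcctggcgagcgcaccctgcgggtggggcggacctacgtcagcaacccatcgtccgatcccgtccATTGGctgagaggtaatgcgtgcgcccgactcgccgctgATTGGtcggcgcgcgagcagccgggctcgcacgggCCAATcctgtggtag
ABCA1 (chr9:104928156-104928405, minus strand): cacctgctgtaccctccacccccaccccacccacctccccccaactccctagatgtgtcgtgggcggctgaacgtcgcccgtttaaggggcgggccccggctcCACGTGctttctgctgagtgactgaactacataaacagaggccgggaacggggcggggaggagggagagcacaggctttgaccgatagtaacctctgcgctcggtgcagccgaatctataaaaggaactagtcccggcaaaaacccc

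The letters TCACNCCAC occurred in SREBF2 alone among the members, as TCACCCCAC, and in 1.13% of all 35116 windows. SREBP sites vary in their letters, and no match says only that these letters are not in this window. The CCAAT box, bound by NF-Y, which works beside SREBP, was in the windows of 21 of 28 members (75%, Wilson 95% interval 56.6 to 87.3%), against 43.9% of the 10376 genes with windows and at least 1 CPM as mRNA. Counted by window it was in 25 of 40 member windows (62.5%), against 34.6% of all windows. MVD held 3 copies in the stretch shown. The members were also divided by the pattern of nutlin replicates 4 and 6, a division made from these same samples after their values were seen. Of the 18 genes with windows that were lowest in both replicates the CCAAT box was in 17, all but CYP51A1. FASN, FDFT1 and SQLE, also lowest in both, had no window. Of the 10 members outside that pattern it was in 4, EBP, TM7SF2, ACLY and ACACA, and ABCA1, SREBF1, SCAP, INSIG2, PMVK and FADS1 held none. The difference between these counts was not tested. The E-box CACGTG, which MYC proteins and some SREBP forms bind, was in 5 of 28 (17.9%), namely SCAP, INSIG1, ABCA1, SC5D and LSS, against 12.8% of those genes, and in 6 of 40 member windows (15%) against 7.26% of all windows. The match of INSIG1 lies outside the bases shown above. The GC box GGGCGG, bound by SP1, was in 27 of 28 (96.4%), against 76.8% of those genes, and in 87.5% of member windows against 44.95% of all windows. All windows include those of genes without expression, whereas all members are expressed, so the gaps by window are not like those by gene. Over all 27305 genes with windows the GC box was in 48.3%. In the member windows 0 matches of one motif overlapped a match of another. The matches are a description of the reference sequence, with no test.

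Of 78 other lipid genes tested 18 rose (23.1%) and 36 fell (46.2%), with a median LFC of -0.12. Among mRNAs with at least 1 CPM 31.4% rose and 50.6% fell, with a median LFC of -0.15, and over all genes 32.3% rose and 26.5% fell. The shares of the other lipid genes thus lay near those of expressed mRNAs, and no test of the difference was run. Among 17 other enzymes of sterol and isoprenoid use 1 rose (5.88%) and 12 fell (70.6%). LBR, a nuclear envelope protein with the same C14 sterol reductase activity as TM7SF2, went from 246 to 349.99 CPM (median 289) in vehicle to 63.5 to 73.5 CPM (median 68.3) in nutlin, an LFC of -2.09 ± 0.051 (edgeR adjusted p 1.62e-24). The LFCs of the 2 reductases were thus similar in size and opposite in direction, each with separate groups. Their levels were unlike. Mean TPM went from 124 in vehicle to 34.6 in nutlin for LBR and from 4.36 to 17.1 for TM7SF2. COQ2, of ubiquinone synthesis, had an LFC of -1.46 ± 0.068, ICMT, which methylates prenylated proteins, -1.22 ± 0.049, and RABGGTA, of Rab prenylation, 0.82 ± 0.043.

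Of 15 genes of SREBP processing and sterol-regulated degradation 2 rose (13.3%) and 9 fell (60.0%, against the 50.6% of expressed mRNAs). PGRMC1, a haem-binding partner of sterol enzymes, had an LFC of -1.46 ± 0.044, ERLIN1, which restrains SREBP in the endoplasmic reticulum, -1.25 ± 0.043, and RNF145, a sterol-responsive ubiquitin ligase, -0.87 ± 0.121. The genes that rose, the site-1 protease gene MBTPS1 and UBE2G2, were at 0.09 ± 0.029 and 0.08 ± 0.033. The call of UBE2G2 (edgeR adjusted p 0.0446) was lost without nutlin replicates 4 and 6 (edgeR adjusted p 0.0989), at 1% FDR and without any 1 of 5 single samples. In the list of sterol uptake, storage and LXR genes 8 of 22 rose (36.4%) and 5 fell (22.7%). Over all genes 32.3% rose and 26.5% fell, and over expressed mRNAs 31.4% rose and 50.6% fell. The LXR gene NR1H3 had an LFC of 0.75 ± 0.105 and NR1H2, its paralog, -0.35 ± 0.045. For the exit of cholesterol from lysosomes, NPC1 had 0.58 ± 0.045 and NPC2 0.73 ± 0.135. SOAT1, which esterifies cholesterol for storage, had -0.80 ± 0.064, and VLDLR, a lipoprotein receptor, -0.23 ± 0.043.

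Among 24 further genes of fatty acid synthesis, elongation and supply 7 rose (29.2%) and 10 fell (41.7%), near the shares of expressed mRNAs. ACSS2, which makes acetyl-CoA from acetate and so lies beside ACLY, went from 4.52 to 7.36 CPM (median 5.13) in vehicle to 12.2 to 22.8 CPM (median 20.95) in nutlin, an LFC of 1.88 ± 0.101 (edgeR adjusted p 3.58e-16). FADS3, a relative of FADS1 and FADS2, had an LFC of 1.42 ± 0.105 and the elongase ELOVL7 0.70 ± 0.176. TECR, HACD3 and HACD1, of the elongation cycle, had -0.73 ± 0.037, -0.70 ± 0.027 and -0.69 ± 0.099.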

How the data were processed

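Poly(A) RNA of 10 vehicle and 10 nutlin samples was sequenced with the TruSeq stranded mRNA kit as read pairs on an Illumina NextSeq. The authors quantified the reads with kallisto 0.42.4 on Ensembl v85 transcripts of GRCh38 and deposited estimated counts, TPM and effective lengths for 198968 transcripts per sample, without further normalization. The authors' TPM values are counts scaled by effective length and library size.

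Transcripts were assigned to genes with GENCODE release 44, in which 191106 had their identifier. Estimated counts were summed per gene and rounded. Every gene with 1 or more counts in both conditions entered the fit with edgeR 4.0.16 in R 4.3.3 (quasi-likelihood F-test, TMM, condition only), with Benjamini-Hochberg adjustment over all 27697 genes at 5% FDR. Transcript usage was tested with diffSpliceDGE (gene-level Simes p) on transcripts kept by filterByExpr. TPM shares and levels were described without a test. The scripts were tested on simulated data.

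The members and gene lists were chosen with earlier results of these data known. Named genes are the members, MDM2, the markers and, from each other lipid list, up to 3 called genes per direction with the largest LFC and a mean of at least 1 CPM. The alternatives were DESeq2 1.42.0 size factors, the DESeq2 Wald test, limma 3.58.1 voom, filterByExpr (minimum count 10), the replicate number as a block, the same 16 samples without it, an offset for effective length and 1% FDR. Leaving out nutlin replicates 4 and 6, or each sample in turn, was added after seeing the data. Same-numbered samples did not deviate together (0 of 8 pairs had a correlation over 0.1), so the numbers were not used as pairs. No 2 samples held identical counts. Some genes of the lists are not reported here. Motif intervals are Wilson 95% intervals.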

Additional observations from a re-analysis of the deposited data

Results flagged for a closer look

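Over 62 groups of 10 samples (31 genes in each condition), 2 had a sample set apart from the rest by a gap larger than Dixon's 95% critical value, where chance sets apart about 1 group in 20. Vehicle replicate 6 had DHCR7 at 54.6 CPM, with the nearest other vehicle sample at 45.8 CPM. Vehicle replicate 4 had SCAP at 88.4 CPM, with the nearest other vehicle sample at 108 CPM. The calls of both genes were the same without that sample.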

How the results depend on the processing

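The number of members called higher was between 19 and 22 and the number called lower 7 or 8 under all alternatives. Leaving out single samples gave 19 to 20 higher and 7 to 8 lower. FDPS lost its call with DESeq2 size factors, the DESeq2 Wald test, filterByExpr, the replicate block, the same 16 samples without it, without nutlin replicates 4 and 6, at 1% FDR, and without 1 of 7 single samples (vehicle 5, 7, 10 or 11, nutlin 1, 4 or 6). The enzymes of cholesterol synthesis called lower then numbered 1 (1 to 2 over single samples) in place of 2, and the enzymes called higher numbered 13 to 16. CYP51A1 was called higher with DESeq2 size factors, the DESeq2 Wald test, filterByExpr, without nutlin replicates 4 and 6 or either of them, and without vehicle replicate 4. NSDHL was called higher with filterByExpr and without nutlin replicates 4 and 6, and SQLE without those 2 libraries. UBE2G2 lost its call at 1% FDR, without nutlin replicates 4 and 6 and without 1 of 5 single samples (vehicle 6, 8 or 9, nutlin 7 or 11). The sign of INSIG2 turned, with no call, in 10 fits. Its LFC was 0.031 with DESeq2 size factors, 0.030 with the DESeq2 Wald test, 0.060 with filterByExpr, 0.0028 with the replicate block, 0.00033 in the same 16 samples without it, and between -0.042 and 0.018 over single samples left out. Limma's diffSplice called 19 members for unequal transcript change in place of 11, and the cause was not tested. The other lipid genes called higher numbered 13 to 23 and those called lower 33 to 37. The block changed no call of a member other than FDPS, which the same 16 samples also lost without the block, and 9 members were called for transcript usage with it. The median shift in LFC over the genes tested was at most 0.08 under these alternatives, a value reached with the filterByExpr filter.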

Other observations

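Of the 78 other lipid genes tested, 13 were also lowest in both nutlin replicates 4 and 6, a share of 16.7% against 5.46% of all genes and 8.46% of mRNAs with at least 1 CPM. In 5 of the 78 both replicates were instead the highest nutlin samples, which held for 8.82% of genes of both biotypes with a mean of at least 1 CPM. The genes named in this paragraph beside ACSS2 and NPC1 were picked after their values were seen. ACAT2, the thiolase that makes acetoacetyl-CoA for HMGCS1, was at 78.1 and 106 CPM in replicates 4 and 6 and at no less than 116 CPM in the other 8. It was not called between the groups over all samples, with an LFC of -0.12. ACSS2 was at 12.2 and 15.3 CPM against no less than 20.2 CPM, and NPC1 at 32.2 and 33.996 CPM against no less than 34.9 CPM. Others among the 13 were ERG28, SPRING1, NPLOC4, SOAT1, STARD5, TMEM97, CYP46A1, ELOVL4 and ELOVL5. The part of handling, depth or cell makeup was not tested.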
